A study of Homo sapiens with 12 samples.

Results

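The nuclear genes of respiratory complexes II to V were followed over 4 h of transcription block in Ewing sarcoma cells. They were taken by symbol: SDHA, SDHB, SDHC and SDHD, the symbols beginning with UQCR, COX4 to COX8 or ATP5, COX10 to COX19, CYC1 and CYCS. Membership also required at least 10 counts in 3 or more of the 12 libraries. The count table lists 26334 symbols. Of these, 61 matched the names, and 52 of them met the count and are the members. The members were 4 genes of complex II, 11 of complex III with cytochrome c, 11 subunit genes of complex IV, 8 assembly factor genes of complex IV and 18 genes of ATP synthase. The ATP5 genes carry their older symbols. The 18 counted with ATP synthase include ATP5S and ATP5SL, which are related factors, and ATP5EP2, a pseudogene.

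The cells were shA673-1c, a derivative of A673, a line established from Ewing sarcoma, with an inducible short hairpin RNA that targets the fusion transcript EWS::FLI1. Every library came from cells given doxycycline at 1 µg/ml for 4 days, so the hairpin was induced at all 4 times, and no library without doxycycline was analysed here. Actinomycin D, which blocks transcription, was then given at 5 µM, and polyadenylated RNA was sequenced at 0, 1, 2 and 4 h, with 3 biological replicates at each time. It is a single cell line, and the labels do not say whether it is 1 clone.

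Respiratory complexes sit in the inner mitochondrial membrane. Succinate dehydrogenase, complex II, feeds electrons from succinate to ubiquinone, complex III passes them to cytochrome c, and complex IV, cytochrome c oxidase, gives them to oxygen. Complexes III and IV pump protons, and ATP synthase, complex V, lets them flow back to make ATP. Apart from complex II, these complexes also hold subunits encoded in mitochondrial DNA, which are not among the members.

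Total counts were 9381855 to 10929000 per library, and 12775 genes passed the filter on low counts, all 52 members among them. FLI1, whose reads here include the 3′ part of the fusion transcript, was detected in every library and was lower at 4 h than at 0 h (log2 change -1.46, SE 0.20, edgeR adjusted p = 7.016e-05). Of 8 Ewing sarcoma markers 7 were detected and CD99 was listed at 0 in all libraries. The summed level of 5 muscle markers was at most 1.46 CPM, counts per library scaled to a common size, and MYH7 and MYOG were at 0. Of 5 blood markers, CD3E was at 0 and their summed level was 8.04 to 14.1 CPM at 4 h and 18.6 to 27.2 CPM at 0 h, nearly all of it HBB. Of 5 epithelial and endothelial markers KRT18 reached 583 CPM. The sum was 429 to 561 CPM at 4 h and 383 to 569 CPM at 0 h, nearly all of it KRT18. EPCAM, CDH1, PECAM1 and VWF reached at most 0.698, 0.0975, 4.19 and 1.46 CPM in any library. The part of these levels in the results was not tested.

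After 4 h most of these mRNAs made up a larger share of the remaining mRNA than at 0 h. Members rose in 38 of 52 cases and fell in 2, COX10 and COX19 (edgeR quasi-likelihood test, Benjamini-Hochberg adjusted over all genes tested, threshold 0.05). Among all 12775 genes tested, 23.3% were higher and 24.6% lower at 4 h. The median log2 change of the members was 0.35, beside 0.05 over all genes tested. The libraries of both times did not overlap for 42 of the 52 members, beside 55.4% of all genes tested. Together the members took 0.591 ± 0.00872% of the reads of a 4 h library and 0.522 ± 0.0189% of those of a 0 h library (SD, n = 3 each). The 12 members without a call at 4 h were SDHA, UQCRFS1, UQCRHL, CYCS, COX11, COX15, COX16, COX17, COX18, ATP5E, ATP5EP2 and ATP5S.

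These are changes relative to the other mRNAs, because the table holds no spike-in and the mRNA pool shrinks when transcription stops. Fewer cells and less RNA per cell cannot be told apart in bulk libraries. Scaled to ribosomal protein mRNAs, which shifted the median of all genes at 4 h to -0.32, the count of 38 higher members did not hold: 1 member was higher and 6 were lower, against 1.2% and 45.8% of all genes. The median of the members was then -0.02, and 22 of 52 log2 changes were positive. Whether these ribosomal protein mRNAs are a fixed reference cannot be decided without a spike-in and was not tested. Under the scaling that gave the 38, 74 of the 77 tested were higher at 4 h and 1 was lower, with a median log2 change of 0.37. Scaled to library totals, 24 members were higher and 3 lower, against 10.5% and 31% of all genes, with medians of 0.20 for the members and -0.10 for all genes. The distance between both medians was 0.30 under each of the 3 scalings, and 47 of 52 members lay above the median of all genes under each. A change of scaling shifts all genes together by nearly the same amount. This sameness was therefore fixed in advance and is no separate support.

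**Figure D1:**
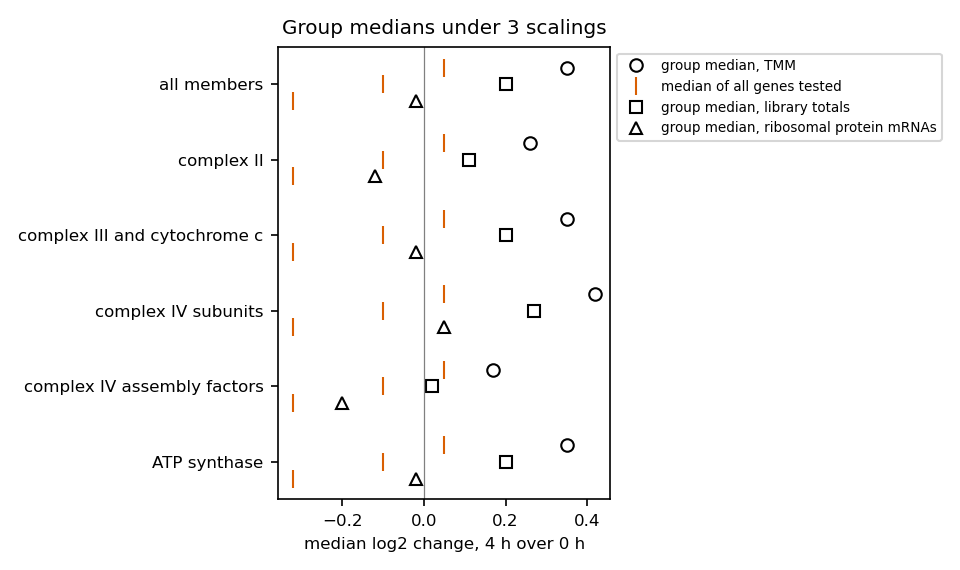
Median log2 change at 4 h over 0 h (horizontal axis) of all 52 members and of each complex under 3 scalings of the libraries, with orange bars for the median of all genes tested under the same scaling. The members' median is 0.35 under TMM, 0.20 under library totals and -0.02 under ribosomal protein mRNAs, and each group median lies to the right of its orange bar. A change of scaling shifts all genes together, so the 3 scalings are not separate checks of this order.

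Complex II consists of a flavoprotein (SDHA), an iron-sulfur protein (SDHB) and a pair of membrane anchors (SDHC and SDHD), and its anchors and iron-sulfur gene rose while the flavoprotein gene had no call. SDHB had 122, 126 and 120.0 CPM at 4 h in replicates 1 to 3, against 99.8, 101 and 102 CPM at 0 h. All 3 libraries at 4 h lay above all 3 at 0 h, and the log2 change was 0.28 (SE 0.06, edgeR adjusted p = 0.001332). The anchor genes rose by 0.29 for SDHC (SE 0.08, adjusted p = 0.008234) and by 0.24 for SDHD (SE 0.07, adjusted p = 0.009546). SDHA had 162, 166 and 169 CPM at 4 h, against 147, 156 and 176 CPM at 0 h, so the groups overlapped. Its log2 change was 0.05 (SE 0.07, adjusted p = 0.6042). Under ribosomal protein scaling SDHB, SDHC and SDHD turned to -0.097, -0.085 and -0.14 with no call, and SDHA was lower at -0.32 (adjusted p = 0.001282). Under library totals none of the 4 genes was called by edgeR. A share of 22.3% of the 50-base stretches of the SDHA transcript also occurs in other annotated transcripts, mostly SDHA pseudogenes, and 27.7% of those of SDHD, so their counts are less certain. The 3 SDHA pseudogenes in the table, SDHAP1, SDHAP2 and SDHAP3, had log2 changes of 0.00, 0.07 and -0.06 with no call.

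In complex III the core proteins, cytochrome c1 and most small subunits rose and the Rieske protein gene did not. Of the 11 genes of complex III with cytochrome c, the retrocopy UQCRHL included, 8 were higher, and the median log2 change was 0.35. UQCRH, the hinge protein that helps cytochrome c dock, had 138, 139 and 140.0 CPM at 4 h, against 99.1, 103 and 104 CPM at 0 h. The groups did not overlap, and the log2 change was 0.44 (SE 0.05, adjusted p = 2.596e-05), a 1.36-fold rise. Its retrocopy UQCRHL had 8.50, 8.89 and 10.4 CPM at 4 h, against 9.06, 8.29 and 8.55 CPM at 0 h, with no call (adjusted p = 0.5511). UQCRH shares 29.4% of its 50-base stretches with UQCRHL, so their reads could have been split. CYC1, cytochrome c1, rose by 0.36 (SE 0.06, adjusted p = 0.0002164) and UQCRQ, a small subunit, by 0.43 (SE 0.06, adjusted p = 7.806e-05). The core protein genes UQCRC1 and UQCRC2 rose by 0.36 and 0.34. UQCRB, UQCR10 and UQCR11 rose by 0.28, 0.35 and 0.51, and UQCRB lost its call in 3 of the 12 fits that left out 1 library, those without 0 h replicate 1, 0 h replicate 3 and 4 h replicate 2 (adjusted p up to 0.1032). Those fits had no replicate number as a covariate. With that covariate and all 12 libraries the edgeR adjusted p of UQCRB was 6.176e-05. Under ribosomal protein scaling 3 of the 11 genes of complex III with cytochrome c had a positive change and none was called higher.

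UQCRFS1, which encodes the Rieske iron-sulfur protein of complex III, had 68.1, 73.3 and 65.5 CPM at 4 h, against 77.7, 73.8 and 75.7 CPM at 0 h. Each library at 4 h lay below each at 0 h, by little. Its log2 change of -0.13 (SE 0.07) had an adjusted p of 0.1357 and passed the threshold with the replicate block, a fit with the replicate number as a covariate (adjusted p = 0.03693), under library totals (-0.29, adjusted p = 0.003961) and under ribosomal protein scaling (-0.51). UQCRFS1 was the only member of complexes II and III with a negative change at 4 h under TMM, and 1 of 2 members outside the assembly factors below the median of all genes, the other being SDHA. CYCS, which encodes the electron carrier cytochrome c, had 187, 245 and 199 CPM at 4 h, against 168, 190.2 and 169 CPM at 0 h. CYCS was higher at 4 h within each of the 3 replicates and its libraries overlapped between the times. Its log2 change of 0.26 had an adjusted p of 0.08678 without the replicate block and of 0.0001355 with it.

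The subunit genes of complex IV rose in 11 of 11 cases, with log2 changes of 0.38 to 0.51 and a median of 0.42. COX7A2 had 109, 105 and 99.5 CPM at 4 h, against 79.8, 71.7 and 68.1 CPM at 0 h. The groups did not overlap, and its log2 change was 0.51 (SE 0.07, adjusted p = 6.693e-05). COX6B1, which lies on the side of the intermembrane space, rose by 0.50 (SE 0.07, adjusted p = 0.0001335), and COX4I1, which carries a binding site for ATP, by 0.41 (SE 0.06, adjusted p = 7.536e-05). The smallest rises of the 11 were those of COX5A and COX7C, both 0.38. COX6A1, COX6C, COX7B and COX8A rose by 0.45, 0.43, 0.39 and 0.45. COX7A2L, related to COX7A2 and known for joining complexes III and IV into supercomplexes, rose by 0.38 (SE 0.09, adjusted p = 0.002988). COX5B rose by 0.42 (SE 0.14, adjusted p = 0.02997), but was no longer called once either of the 0 h replicates 1 and 2 or of the 4 h replicates 1 and 3 was left out (adjusted p up to 0.1059). Under library totals 10 of the 11 were higher, and under ribosomal protein scaling the 11 changes lay between 0.005 and 0.14 and none was called by edgeR. A share of 44% of the 50-base stretches of COX6A1 and 27.7% of those of COX8A occurs in other transcripts.

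The tissue-specific alternatives of these subunits were not members, for lack of counts. COX4I2 of lung, COX6A2 and COX7A1 of muscle and COX7B2 of testis had 0 counts in all 12 libraries, which allows up to 0.274 to 0.32 CPM per library (3 counts, counting error only). COX8C and COX6B2, both of testis, had 2 and 12 counts over all libraries. The readthrough transcript ATP5J2-PTCD1 and the pseudogene UQCRBP1 had 0 counts, and the retrocopy ATP5L2 had 6. No change can be given for these 9 symbols from so few counts. A share of 98.1% of the 50-base stretches of ATP5J2-PTCD1 and 33.4% of those of COX6B2 occurs in other transcripts. Low counts of these genes may therefore not reflect their levels.

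**Figure D2:**
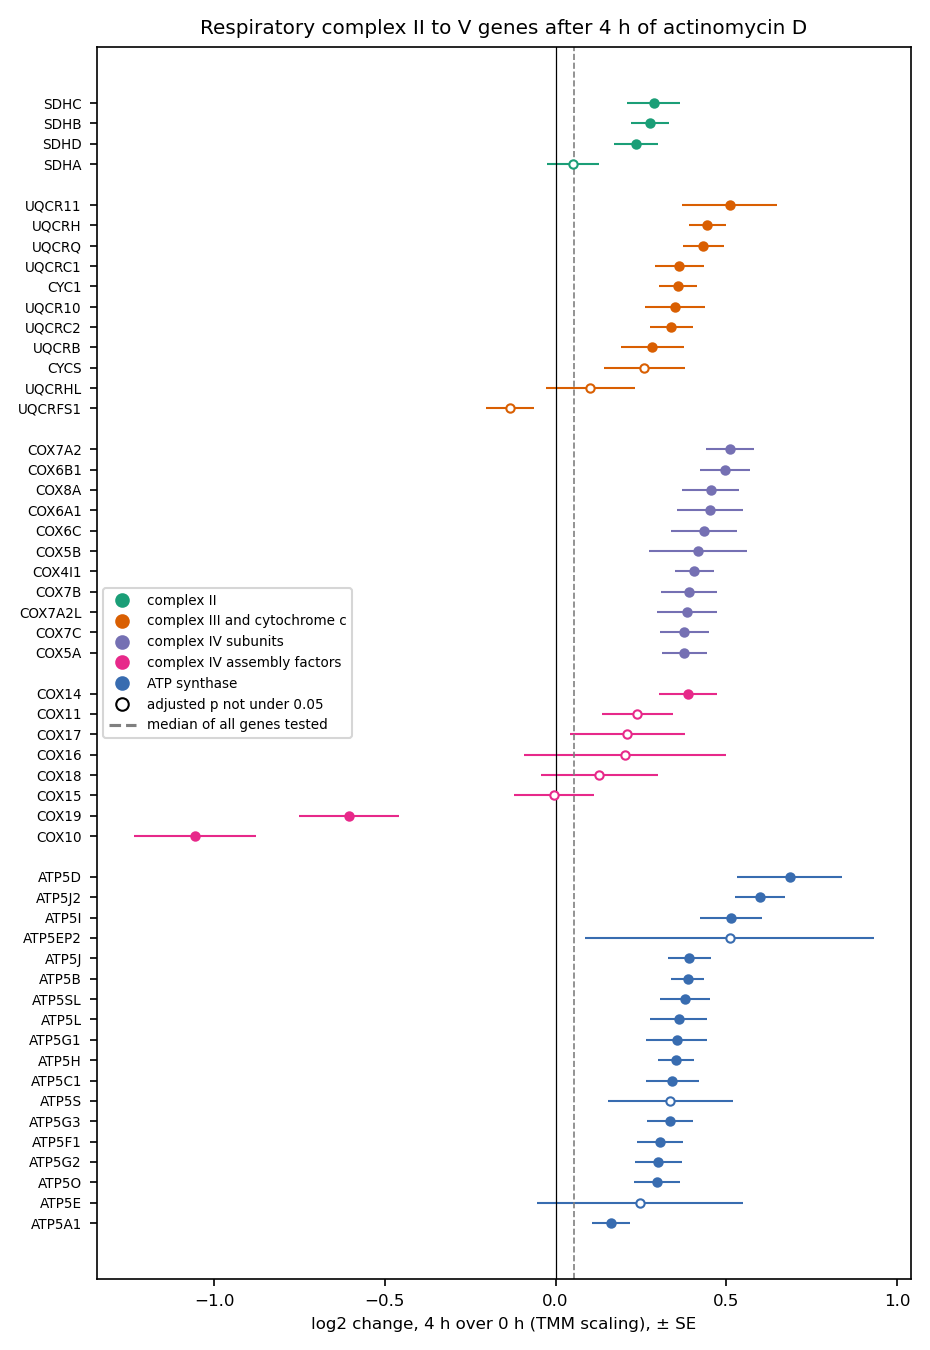
Log2 change at 4 h over 0 h with its standard error (horizontal axis, TMM scaling) for each of the 52 members, grouped by complex. Filled points passed the threshold, the dashed line is the median of all genes tested, and COX10 and COX19 stand apart at -1.06 and -0.60 while the 11 complex IV subunits lie between 0.38 and 0.51.

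The assembly factors of complex IV spread from -1.06 to 0.39 around a median of 0.17, where its subunits spread from 0.38 to 0.51. These proteins are not part of the finished enzyme: they make its heme A, deliver copper or insert its mitochondrially encoded core. COX14, which acts on newly made COX1, rose, COX10 and COX19 fell, and COX11, COX15, COX16, COX17 and COX18 had no call.

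COX10, the farnesyltransferase that makes heme O, the precursor of heme A, stood at 15.1, 11.97 and 15.2 CPM at 0 h, 13.1, 12.6 and 12.6 CPM at 1 h, 11.3, 8.40 and 8.79 CPM at 2 h and 7.93, 4.92 and 7.53 CPM at 4 h. Every library at 4 h lay below every library at 0 h, and so did every library at 2 h. The fall at 4 h was 2.08-fold (log2 change -1.06, SE 0.18, adjusted p = 0.0003637, lower in 3 of 3 replicates), and it kept its call in each of the 12 fits that left out 1 library and under the 3 scalings. At 2 h the log2 change was -0.57 (adjusted p = 0.04024), and that call ended in 6 of those 12 fits (without 0 h replicate 1 or 3, 1 h replicate 1 or 2, or 2 h replicate 2 or 3; adjusted p up to 0.154) and without replicate 3. The fits without 1 library had no replicate block. With the replicate block and all 12 libraries the edgeR adjusted p at 2 h over 0 h was 0.0003758. COX10 was then also lower at 4 h than at 2 h (-0.48, adjusted p = 0.006982, and 0.07687 without the block).

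COX15, which turns heme O into heme A in the next step, had no call. It stood at 39.0, 40.4 and 42.2 CPM at 4 h, against 41.6, 35.0 and 45.2 CPM at 0 h. The groups overlapped, the log2 change was -0.00 (SE 0.12, adjusted p = 0.9833), and under ribosomal protein scaling it was lower at -0.38 (adjusted p = 0.02656). COX15 shares 42.3% of its 50-base stretches with other annotated transcripts. The difference between COX10 and COX15 was not tested.

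COX19, a small intermembrane space protein tied to copper delivery, was called lower at 2 h and at 4 h. It stood at 13.9, 14.2 and 15.5 CPM at 0 h, 10.1, 9.71 and 11.1 CPM at 1 h, 9.99, 6.58 and 8.50 CPM at 2 h and 9.18, 8.78 and 10.7 CPM at 4 h. From 1 h on, every library lay below every library at 0 h. The log2 change was -0.49 at 1 h (adjusted p = 0.1487, and 0.005042 with the replicate block), -0.80 at 2 h (SE 0.15, adjusted p = 0.002277) and -0.60 at 4 h (SE 0.15, adjusted p = 0.004267), and 0.19 at 4 h over 2 h with no call. The calls at 2 h and 4 h held in each of the 12 fits without 1 library. None of its 50-base stretches occurs in another annotated transcript.

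Of the copper chaperones, COX17 had no call with or without the replicate block and COX11 had one only with it, and COX14 rose. COX17, which carries copper to the others, changed by 0.21 on the log2 scale with no call (SE 0.17, adjusted p = 0.3269), from levels of 8.39 to 9.83 CPM at 4 h and 6.79 to 8.40 CPM at 0 h. COX11, which passes copper to COX1, had a log2 change of 0.24 (SE 0.10), with an adjusted p of 0.07613 that became 0.009407 with the replicate block. COX14 had 22.0, 22.7 and 21.2 CPM at 4 h, against 15.8, 17.1 and 17.5 CPM at 0 h, and rose by 0.39 (SE 0.09, adjusted p = 0.002364), a change of 0.01 under ribosomal protein scaling. COX18, which inserts COX2 into the membrane, and COX16, a partner of COX2, had changes of 0.13 and 0.20 with SEs of 0.17 and 0.30. A share of 34.4% of the 50-base stretches of COX16 also occurs in SYNJ2BP-COX16, so its counts are less certain.

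**Figure D3:**
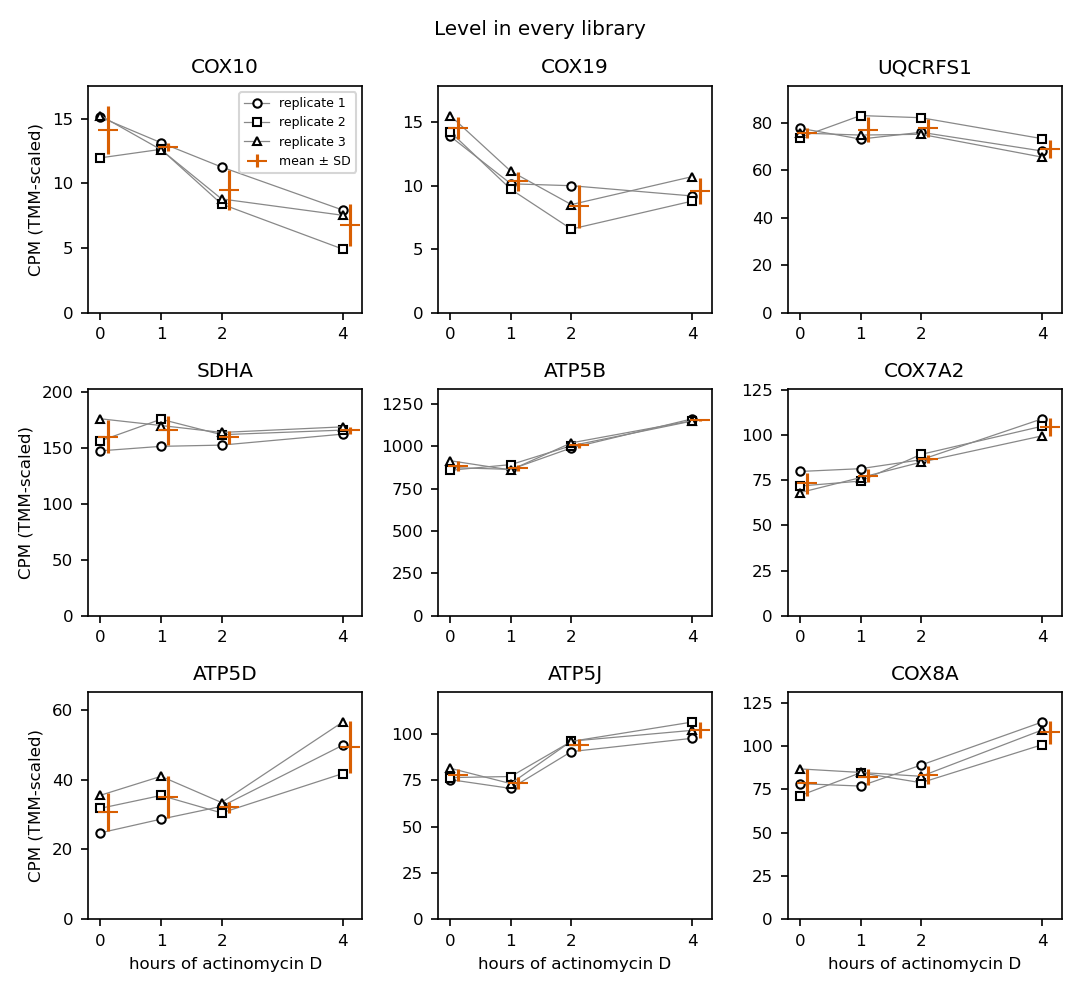
CPM from TMM-scaled totals (vertical axes, from 0) against hours of actinomycin D for 9 members, with a line for each replicate and the mean ± SD (n = 3) in orange. COX10 declines to between 4.92 and 7.93 CPM at 4 h, COX19 has its lowest mean at 2 h, UQCRFS1 lies between 65.5 and 73.3 CPM at 4 h, SDHA overlaps its level at 0 h, and ATP5B, COX7A2, ATP5D, ATP5J and COX8A are highest at 4 h.

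ATP synthase has a catalytic F1 head, a stalk and a membrane part with a rotating ring of c subunits, and genes of each part rose at 4 h. Of the 18 ATP5 members 15 rose, with a median log2 change of 0.35. These 18 include the related factors ATP5S and ATP5SL and the pseudogene ATP5EP2, and ATP5SL is among those that rose. Under library totals 8 of the 18 were higher, and with ribosomal protein scaling 7 of the 18 changes were positive and 1 gene was higher and 1 lower. ATP5B, the catalytic beta subunit, stood at 875, 859 and 915 CPM at 0 h, 865, 893 and 861 CPM at 1 h, 991, 1004 and 1021 CPM at 2 h and 1163, 1150 and 1152 CPM at 4 h. The 3 libraries at 4 h lay above those of every earlier time, and the log2 change over 0 h was 0.39 (SE 0.05, adjusted p = 3.55e-05). ATP5A1, the alpha subunit that alternates with beta in the head, had 571, 565 and 577 CPM at 4 h, against 490, 495 and 545 CPM at 0 h. Its change was the smallest of the 15 that rose, at 0.16 (SE 0.05, adjusted p = 0.02698), the call was lost in 5 of 12 fits without 1 library, those that left out the 0 h replicates 1 or 2 or any of the 4 h replicates (adjusted p up to 0.1016), and under ribosomal protein scaling it was lower at -0.21 (adjusted p = 0.01199).

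ATP5D, the delta subunit of the F1 stalk, had 49.9, 41.7 and 56.5 CPM at 4 h, against 24.7, 31.8 and 35.5 CPM at 0 h. This was the highest change of all members, 0.69 (SE 0.15, adjusted p = 0.002712), and 0.62 of it came between 2 h and 4 h. ATP5C1, the gamma subunit, rose by 0.34. Of the peripheral stalk, ATP5F1, ATP5H, ATP5J and ATP5O rose by 0.31, 0.35, 0.39 and 0.30. Of the small membrane subunits, ATP5J2 (f) had 62.0, 59.4 and 56.4 CPM at 4 h, against 41.3, 36.4 and 39.7 CPM at 0 h. ATP5J2 rose by 0.60 (SE 0.07, adjusted p = 2.838e-05) and was the member called higher under ribosomal protein scaling (0.23, adjusted p = 0.04382). ATP5I (e) and ATP5L (g) rose by 0.51 and 0.36. ATP5SL, a related factor now named DMAC2, rose by 0.38. ATP5E, the epsilon subunit, was covered by few reads, at 1.36 to 2.82 CPM at 4 h and 1.42 to 1.94 CPM at 0 h. Its change of 0.25 (SE 0.30) and that of its pseudogene ATP5EP2 (0.51, SE 0.42) could not be told from 0. Whether the few reads of this pair reflect low levels or how reads of related genes were counted was not tested. For ATP5S, a related factor, the change was 0.34 (SE 0.18, adjusted p = 0.1502). A share of 69% of the 50-base stretches of ATP5O and 39.1% of those of ATP5J2 occurs in other transcripts, most of them in AP000311.1 and in the readthrough transcript ATP5MF-PTCD1.

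The c subunit is encoded by 3 genes, ATP5G1, ATP5G2 and ATP5G3, which differ in the import sequence that is cut off and give the same mature protein. Their last 77 codons before the stop codon encode the same residues but differ at 57 of 231 bases, as shown from the GENCODE release 29 transcripts of GRCh38. They lie at chr17:48895216-48895766 on the plus strand for ATP5G1, chr12:53665317-53669266 on the minus strand for ATP5G2 and chr2:175178291-175179175 on the minus strand for ATP5G3, introns included. Capitals mark the bases that are not the same in all 3 genes.
ATP5G1: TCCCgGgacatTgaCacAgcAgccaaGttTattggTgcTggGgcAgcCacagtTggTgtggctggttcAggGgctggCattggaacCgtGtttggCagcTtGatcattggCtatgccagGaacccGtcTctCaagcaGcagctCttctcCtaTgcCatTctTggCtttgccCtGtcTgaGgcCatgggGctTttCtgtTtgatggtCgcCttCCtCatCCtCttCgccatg
ATP5G2: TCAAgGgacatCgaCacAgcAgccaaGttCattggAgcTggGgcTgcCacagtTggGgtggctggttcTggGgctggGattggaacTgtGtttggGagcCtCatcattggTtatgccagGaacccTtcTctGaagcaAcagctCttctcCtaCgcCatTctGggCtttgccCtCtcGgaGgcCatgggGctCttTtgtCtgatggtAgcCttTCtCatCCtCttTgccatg
ATP5G3: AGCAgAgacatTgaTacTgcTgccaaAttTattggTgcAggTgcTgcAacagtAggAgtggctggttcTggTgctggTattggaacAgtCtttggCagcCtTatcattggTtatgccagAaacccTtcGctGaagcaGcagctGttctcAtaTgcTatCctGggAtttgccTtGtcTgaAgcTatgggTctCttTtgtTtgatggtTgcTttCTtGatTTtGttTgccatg
Identity over these bases was 88.3% between ATP5G1 and ATP5G2 and 80.1% between ATP5G3 and either of them. Stretches of 50 bases mostly belong to 1 of the genes alone: 1.01 to 2.19% of those in their transcripts occur elsewhere.

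All 3 c subunit genes rose at 4 h under TMM, by 0.35 for ATP5G1 (SE 0.09, adjusted p = 0.005513), 0.30 for ATP5G2 (SE 0.07, adjusted p = 0.003098) and 0.33 for ATP5G3 (SE 0.07, adjusted p = 0.001135). Under ribosomal protein scaling these changes were -0.017, -0.072 and -0.038. ATP5G1 had 41.5, 37.5 and 39.3 CPM at 4 h, against 30.4, 28.2 and 33.9 CPM at 0 h. The groups did not overlap for any of the 3 genes. The ratio of 2 members does not depend on the scaling of a library, so 3 ratios were followed over the 4 times. ATP5G1 to ATP5G3 had a log2 slope of -0.00211 per hour (exact permutation of times within replicates, two-sided p = 0.9257, adjusted over the 3 ratios 0.9257). ATP5G2 to ATP5G3 had one of -0.021 (exact p = 0.2687, adjusted 0.403), and COX7A2L to COX7A2 one of -0.0292 (exact p = 0.1599, adjusted 0.403). No shift between the paralogs passed the threshold, which does not show that they decay alike.

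The rise was spread over the later hours. At 1 h no member was called higher or lower by edgeR, beside 0.172% and 1.16% of all genes, with 1 member in each direction at an unadjusted p under 0.05 (ATP5J2 higher, COX19 lower) and 0 by DESeq2. With the replicate block 1 member, COX19, was lower, beside 6.28% of all genes. At 2 h 6 members were higher, UQCRH, ATP5J, ATP5B, COX7A2, ATP5O and COX7B, and 2 were lower, COX10 and COX19, beside 3.39% and 11.7% of all genes. With the replicate block 27 were higher at 2 h, beside 15.9%, and the count was 2 under library totals, beside 1.12%, and 0 under ribosomal protein scaling, beside 0.196%. Without 1 library it ranged from 2 to 9, being 2 without 0 h replicate 2 or 2 h replicate 2 and 3 without 0 h replicate 1 or 2 h replicate 3.

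Between 2 h and 4 h 18 members rose and none fell by edgeR, beside 10.2% and 14.2% of all genes. In the direction of a fall 2 members had an unadjusted p under 0.05, DESeq2 called 0, and the replicate block gave 29 higher and 2 lower (COX10 and UQCRFS1), beside 22.1% and 22.3%. Under library totals 6 were higher and 2 lower, beside 4.84% and 19%. Under ribosomal protein scaling 0 were higher and 5 lower, beside 0.916% and 30.5%. By complex the rises between 2 h and 4 h were 0 of 4 genes in complex II, 5 of 11 in complex III with cytochrome c, 6 of 11 complex IV subunits, 0 of 8 assembly factors and 7 of 18 in ATP synthase. With the replicate block they were 0, 7, 10, 0 and 12 in the same order. Without 2 h replicate 2 the count of 18 was 11.

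Members differed in when they rose. ATP5J, coupling factor 6 of the peripheral stalk, stood at 75.4, 76.5 and 81.6 CPM at 0 h, 70.7, 77.1 and 73.3 CPM at 1 h, 90.6, 96.1 and 96.2 CPM at 2 h and 97.8, 107 and 102 CPM at 4 h. Most of its rise was there at 2 h, with 0.28 by then (SE 0.06, adjusted p = 0.008721) and 0.12 from 2 h to 4 h with no call. COX8A stood at 78.3, 71.4 and 86.8 CPM at 0 h, 76.9, 84.6 and 84.8 CPM at 1 h, 89.0, 78.8 and 82.5 CPM at 2 h and 114, 101 and 109 CPM at 4 h. Its rise lay between 2 h and 4 h, with 0.37 (SE 0.08, adjusted p = 0.005872). Both genes were picked out after their values were seen, and the difference in timing was not tested.

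The GC content of the coding sequence, which the choice of members did not use, was set beside the changes. Over the 51 members with an annotated transcript the log2 change at 2 h over 0 h had a Spearman's rho of -0.429 with coding GC content, and the change at 4 h over 2 h one of 0.433. Without the assembly factors, over 43 genes, the values were -0.599 and 0.571. Over 12031 genes of the table they were -0.156 and 0.364. In the 17 members with the highest GC content, 53.8 to 68%, the median log2 change was 0.08 at 2 h over 0 h and 0.28 at 4 h over 2 h. In the 17 with the lowest, 41.1 to 48.7%, it was 0.17 and 0.14. These are descriptions across genes that share the same 12 libraries, and the 2 h libraries enter both changes with opposite sign. Pearson's r at 2 h was -0.08 over the 51 members and -0.501 over the 43 without the assembly factors, the class that holds COX10 and COX19. At 1 h over 0 h, where no member was called, rho with GC content was 0.438 over the 51 members. For 4 h over 0 h it was 0.305. Coding length had a rho of -0.411 at 4 h over 0 h and of -0.435 at 4 h over 2 h. Whether GC content goes with the timing of the rise was not tested.

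**Figure D4:**
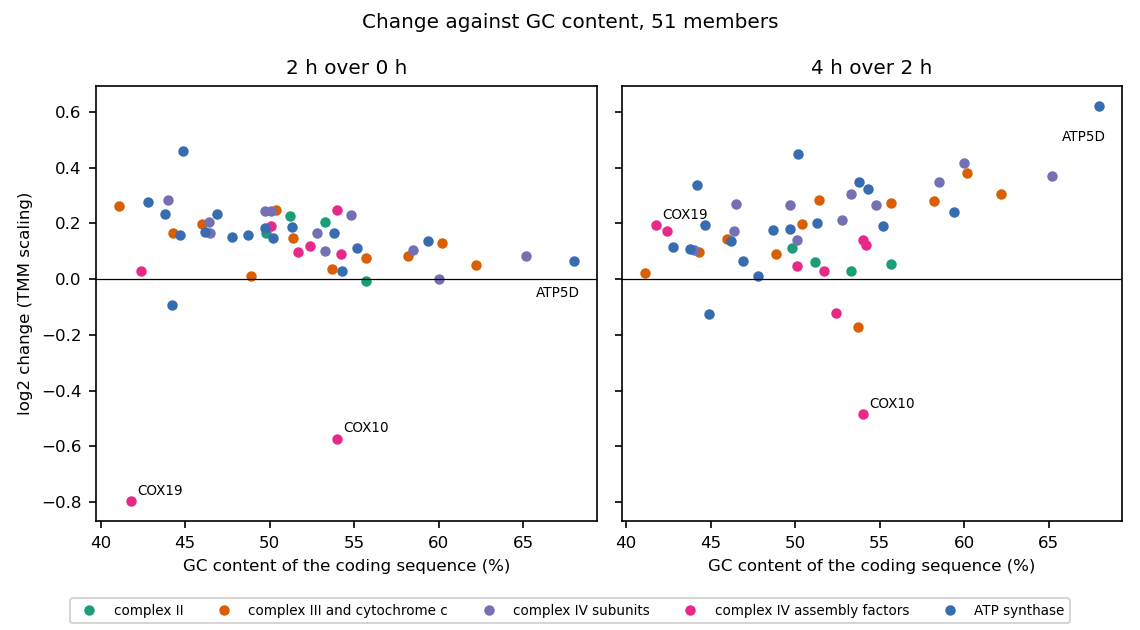
Log2 change (vertical axis, TMM scaling) of 51 members against the GC content of their coding sequence (horizontal axis, percent), at 2 h over 0 h on the left and at 4 h over 2 h on the right, coloured by complex. Genes richer in GC lie lower on the left (rho -0.429) and higher on the right (rho 0.433), with ATP5D at 68% GC farthest to the right.

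The median 3′ UTR of the members was 399 bases, beside 1086 over all genes with a transcript. Motifs tied to mRNA turnover were counted on the sense strand of the 3′ UTR: ATTTA, the core of AU-rich elements, in 30 of 51 members (58.8%) and 69.5% of all genes, TTATTTATT, its stricter form that contains ATTTA, in 3 members (5.88%) and 8.51%, and TGTANATA, the Pumilio motif, in 6 members (11.8%) and 27.5%. The shorter UTRs of the members enter these shares.

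The 3′ UTRs of both members that fell were read for these motifs, and a 30-base window of GRCh38, in the sense of the mRNA, is shown around each ATTTA, in capitals. COX10 holds 2 in 1464 bases, at chr17:14208439-14208468 and chr17:14208544-14208573 on the plus strand, and COX19 holds 2 in 3303 bases, at chr7:968770-968799 and chr7:968754-968783 on the minus strand. CYCS is shown beside them for its TTATTTATT, which begins 16 bases after the stop codon, at chr7:25123666-25123695 on the minus strand.
COX10 first site: gagttaaacaacATTTAaacagagttctct
COX10 second site: ctgcccccaggtATTTActgtggagaacat
COX19 first site: gtatcagaccgtATTTAtaaagttgggtat
COX19 second site: ataaagttgggtATTTAatttcagtaactc
CYCS site: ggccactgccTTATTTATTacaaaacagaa
Such matches are common: 85% of genes with a 3′ UTR within 20% of the length of that of COX10 hold an ATTTA, with a median of 3, and 96.8% of those like COX19, with a median of 7. TTATTTATT is found in 15.4% of genes with a 3′ UTR within 20% of the length of that of CYCS. Neither COX10 nor COX19 has TTATTTATT or TGTANATA in its 3′ UTR. CYCS, which holds 16 ATTTA in all, had no call at 4 h without the replicate block. UQCRFS1, with 5, had none either, but was lower with the replicate block and under the other scalings. The other members with TTATTTATT are ATP5A1, with 4, and UQCRB, with 1. These counts hold for the annotated transcript taken for each gene, with 3′ UTRs of 4034 bases for ATP5A1 and 5135 for UQCRB. Whether these cells use those long 3′ UTRs was not tested. ATP5A1 and UQCRB rose by 0.16 and 0.28, and each lost its call in some fits without 1 library. A link between these motifs and the changes was not tested.

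Complex I, the NADH dehydrogenase at the start of the chain, was read beside the members. Of its 37 subunit genes 31 rose at 4 h and 1 fell, beside 23.3% and 24.6% of all genes. Their median log2 change was 0.36, and NDUFA10, NDUFB2 and NDUFS6 rose by 0.50, 0.54 and 0.55 on the log2 scale. NDUFV3, a small subunit of the NADH-binding module, fell by 0.95 (SE 0.09, adjusted p = 2.63e-06). With ribosomal protein scaling 1 complex I gene was higher and 4 were lower, beside 1.2% and 45.8% of all genes. Of 41 subunits and factors of complexes II to V with other symbols 13 rose and 7 fell, beside 23.3% and 24.6% of all genes. Their median was 0.17. Among the falls were those of assembly factors: COA7 fell by 2.31 (SE 0.19) and SCO2, a copper chaperone for COX2, by 1.24 (SE 0.17), and FASTKD5 and FASTKD3, which act on mitochondrial RNA, fell by 2.55 and 1.16. Of the 41, 0 were higher and 15 lower under ribosomal protein scaling, beside 1.2% and 45.8% of all genes.

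Of 15 genes tested that control the transcription of respiratory genes, 8 fell and 1 rose at 4 h, beside 24.6% and 23.3% of all genes. Their median log2 change was -0.40. Under ribosomal protein scaling 13 were lower and 0 higher, beside 45.8% and 1.2%. With the replicate block 11 were lower and 1 higher, beside 3934 and 4444 of the 12775 genes tested. NRF1, a transcription factor of respiratory genes, fell by 1.18 (SE 0.13, adjusted p = 7.716e-06), PPRC1, a coactivator of the PGC-1 family, by 1.61 (SE 0.12), CREB1 by 0.90 (SE 0.10) and TEFM, a factor for elongation on mitochondrial DNA, by 1.53 (SE 0.24). ESRRA, a nuclear receptor named here because it was the 1 that rose, had a change of 0.50 (SE 0.15, adjusted p = 0.01616), which was 0.13 with no call under ribosomal protein scaling. The difference between these lists and the members was not tested.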

How the data were processed

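Polyadenylated RNA of 12 libraries of shA673-1c cells was made into stranded TruSeq libraries, per the labels' protocols. The table deposited by the authors gives unnormalised read counts for each symbol. The submitters' processing notes name FastQC, STAR and hg19. The counting program, annotation and strand setting are not given in the sources used here, so reads of near-identical or overlapping genes could have been split or shared.

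Counts were fitted with edgeR 4.0.16 in R 4.3.3: filterByExpr on the times, TMM, time as a factor over all 12 libraries, quasi-likelihood test, Benjamini-Hochberg adjustment over the 12775 genes tested, threshold 0.05. SEs are the size of the log2 change over the root of the F statistic. CPM of the members use TMM-scaled totals. Those of the muscle, blood, epithelial and endothelial markers and the bound for 0 counts use unscaled library totals. DESeq2 1.42.0 and other scalings, filters, left-out libraries and a replicate block were alternatives. The replicate numbers, given by the labels for separate biological replicates, pair the libraries: deviations from the time means correlated at 0.369 to 0.494, 0.263 to 0.336 and 0.575 to 0.649 within replicates 1, 2 and 3, and at -0.501 to 0.16 between them. Blocked values are given beside members whose call they change at 4 h over 0 h and beside counts of members they move by over 1.5 times. They are also given for some calls that ended in fits without 1 library.

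Transcript features and sequences come from GENCODE release 29 (GRCh38), and 50-base stretches were compared with its transcripts. For each gene 1 protein-coding transcript was taken by its rank in the annotation, and its use in these cells was not tested. Ratios used exact permutation with a pseudocount of 0.5. Scripts were tested on simulated data.

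The members and lists were chosen with earlier results of these data known. Described first were members called lower, per complex the 3 smallest adjusted p among rises at 4 h and the 2 lowest changes, paralogs, members without enough counts and up to 4 genes per other list; the remaining members were added after their values were seen.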

Additional observations from a re-analysis of the deposited data

How the results depend on the processing

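The count of 38 higher and 2 lower members at 4 h was 24 higher under library totals and 1 higher with 6 lower under ribosomal protein scaling, and without 1 library it was 35 to 39 higher and 2 lower in each such fit. At 2 h the 6 higher and 2 lower were 2 higher under library totals, 0 under ribosomal protein scaling, 3 without the filter on low counts, 27 with the replicate block, 2 to 9 without 1 library, and 1 to 2 lower without 1 library and 1 without replicate 3. At 1 h the replicate block gave 1 lower. Between 2 h and 4 h the 18 higher and 0 lower were 6 and 2 under library totals, 0 and 5 under ribosomal protein scaling and 29 and 2 with the replicate block, and without 1 library 11 to 19 were higher. The cause of these differences was not tested, except that the scalings shift all genes together. Under ribosomal protein scaling 26 of the 48 positive log2 changes of members at 4 h over 0 h were negative, and 29 of the 48 at 4 h over 2 h. Those called under TMM or under ribosomal protein scaling were, at 4 h over 0 h, ATP5A1 -0.209, ATP5C1 -0.0303, ATP5F1 -0.0671, ATP5G1 -0.0169, ATP5G2 -0.0721, ATP5G3 -0.0378, ATP5H -0.0202, ATP5L -0.012, ATP5O -0.075, CYC1 -0.014, SDHA -0.321, SDHB -0.0969, SDHC -0.0846, SDHD -0.137, UQCR10 -0.0242, UQCRB -0.0905, UQCRC1 -0.00998 and UQCRC2 -0.0326. At 4 h over 2 h they were ATP5A1 -0.223, ATP5B -0.0346, ATP5H -0.0402, COX5A -0.0227, SDHD -0.203 and UQCRH -0.0381. Over the 52 members, the 3 comparisons 2 h over 0 h, 4 h over 0 h and 4 h over 2 h and 20 alternatives, 2847 of 3116 values kept their call or its absence, 75 gained and 170 lost a call, and 24 were the called changes of sign listed here. The replicate block gained 37 of these calls and lost 0. At 9381855 to 10929000 counts per library, members under 3 CPM, ATP5E, ATP5EP2 and COX16, had SEs of 0.30 to 0.42, so changes of their size were not detectable. Whether their few reads come from low levels or from how reads of related genes were counted was not tested.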
